A study of Mus musculus with 24 samples.

Results

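The collagen genes other than Col4a1 and Col4a2 were taken as every row of the deposited expression table whose symbol reads Col, a number, a and a number. This gave 42 genes of 19953, and 44 with Col4a1 and Col4a2. By structure they were 11 fibrillar, 7 network, 9 fibril-associated, 6 beaded filament, 1 anchoring fibril, 2 multiplexin, 4 transmembrane and 2 other collagens. RNA was sequenced from mouse embryonic stem cells (mESC) of 4 genotypes at day 0 and day 4. Each of the 8 groups has 3 libraries. All lines go back to a Cre-inducible Mll2-KO line, and Mll1-KO was made in it by CRISPR deletion. WT and Mll1-KO cells were untreated, whereas Mll2-KO and double-KO cells had received 800 nM 4-hydroxytamoxifen (4-OHT) for 48 h, so that loss of MLL2 and exposure to the drug cannot be told apart. Day 0 cells grew on gelatin in 15% serum with LIF, the cytokine that holds mESC undifferentiated. Day 4 cells had been through a multilineage differentiation in 10% serum with 1 µM retinoic acid. The column names of the day 0 WT libraries carry an extra letter that the labels do not explain, so every comparison with WT at day 0 rests on matching them by genotype, day and replicate. The labels give neither the number of clones per genotype nor whether replicates were separate cultures, so p-values measure only the spread between these libraries, which may be technical.

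MLL1 and MLL2, encoded by Kmt2a and Kmt2b, are methyltransferases of lysine 4 on histone H3, and MLL2 acts mainly at CpG-rich promoters. Collagens are triple-helical proteins of the extracellular matrix, and many of their molecules combine chains from different genes. Fibrillar collagens give connective tissue its tensile strength, network collagens build basement membranes, fibril-associated collagens sit on fibril surfaces, and transmembrane collagens anchor cells. The major type IV chains Col4a1 and Col4a2, which parietal endoderm makes in bulk, are left aside here.

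The libraries held 17.7 to 22.8 M reads at day 0 and 10.7 to 17.1 M at day 4. Kmt2a read 1089 ± 37.8 normalized counts (SD, n = 3) in WT and 29.65 ± 11.8 in Mll1-KO at day 0, and 29.75 ± 8.36 in the double-KO. Kmt2b read 2853 ± 48.2 in WT, 2540 ± 226 in Mll2-KO and 2640 ± 137 in the double-KO at day 0, and 2269 ± 57.4, 2502 ± 189 and 2266 ± 150 at day 4. This whole-gene count could not check the Mll2 deletion, and the groups called without MLL2 below are so by their labels. The 8 pluripotency markers summed to at least 104751 in every day 0 library and to 2839 to 9269 in those of day 4. At day 4 the 12 parietal endoderm markers, which include Col4a1 and Col4a2, summed to 287051 to 296011 in WT, 163293 to 169402 in Mll1-KO, 409761 to 421950 in Mll2-KO and 246564 to 254851 in the double-KO. The 7 visceral endoderm markers had the same order, from 6604 to 7655 in Mll1-KO to 22208 to 23425 in Mll2-KO, and the 12 fibroblast and mesenchyme markers summed to between 4075 and 5397 in all day 4 groups. That last sum hides members that went different ways. Pdgfra had means of 2320 in WT, 1220 in Mll1-KO, 3490 in Mll2-KO and 2110 in the double-KO. In the same order Fbn1 had 984, 1340, 500 and 644, and Dcn 192, 208, 164 and 309. No marker of these 4 lists was at 0 at day 4. Their part in the results was not tested, and in bulk RNA fewer cells of a type and less RNA per cell cannot be told apart.

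The upstream sequences of 4 members are shown. These members were chosen by their expression, and the part of the sequences in it was not tested. Col4a6 and Col4a5 had the largest falls in Mll2-KO, Col11a1 rose in Mll1-KO and fell in Mll2-KO, and Col3a1 was the most abundant fibrillar member at day 4. Each runs 5′ to 3′ in the direction of transcription, and capitals mark CpG dinucleotides. The stretches come from RefSeq promoters (GRCm38.p6) and end before the first exon annotated in GENCODE M21. The windows are chrX:141474077-141474326 on the minus strand, chrX:141475169-141475384 on the plus strand, chr3:114030290-114030539 on the plus strand and chr1:45311288-45311537 on the plus strand.
Col4a6: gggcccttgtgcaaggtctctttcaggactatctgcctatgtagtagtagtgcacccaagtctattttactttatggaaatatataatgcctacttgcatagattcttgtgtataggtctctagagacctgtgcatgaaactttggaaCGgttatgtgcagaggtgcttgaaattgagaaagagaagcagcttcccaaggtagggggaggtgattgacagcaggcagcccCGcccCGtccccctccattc
Col4a5: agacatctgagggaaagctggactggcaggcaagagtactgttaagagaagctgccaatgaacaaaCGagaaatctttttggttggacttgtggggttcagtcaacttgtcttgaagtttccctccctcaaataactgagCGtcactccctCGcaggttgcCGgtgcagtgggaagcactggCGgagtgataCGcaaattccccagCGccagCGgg
Col11a1: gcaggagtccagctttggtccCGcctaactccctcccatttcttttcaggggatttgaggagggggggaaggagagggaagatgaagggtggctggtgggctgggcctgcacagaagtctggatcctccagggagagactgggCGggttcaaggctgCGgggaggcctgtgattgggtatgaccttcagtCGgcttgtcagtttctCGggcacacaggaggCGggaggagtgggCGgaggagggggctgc
Col3a1: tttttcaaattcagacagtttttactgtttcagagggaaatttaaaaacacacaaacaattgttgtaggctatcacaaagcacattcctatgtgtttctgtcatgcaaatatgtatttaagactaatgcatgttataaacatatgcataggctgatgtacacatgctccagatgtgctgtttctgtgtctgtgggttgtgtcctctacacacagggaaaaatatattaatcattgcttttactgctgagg
Col4a6 (chromosome X, 141165403 to 141474076, minus strand) and Col4a5 (chromosome X, 141475385 to 141689234, plus strand) lie head to head, with their starts 1309 bases apart. Col4a4 and Col4a3 on chromosome 1 are arranged the same way, 72 bases apart. The printed stretches hold 3 CpG for Col4a6, 8 for Col4a5 (in 216 bases, and 10 in the full 250), 7 for Col11a1 and 0 for Col3a1, and the median over the 250 bases upstream of 32851 promoters was 6. Of the members, 33 had a promoter entry, with 36 windows. GGGCGG, a GC box core, was found on either strand in 21 of the 36 and in 32.7% of all promoters. CCAAT was in 11 of 36 (33.8% of all) and TATAAA in 5 of 36 (12.4% of all), that of Col3a1 among them. None of the 3 motifs contains another, and GGGCGG holds a CpG. Among members with a window, CpG had a median of 10.0 (2 to 24) in the 11 that fell in Mll2-KO at day 4, 3.0 (0 to 15) in the 5 that rose and 15.5 (3 to 28) in the 10 that did not pass the test.

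In WT most collagen genes rose from day 0 to day 4. The WT mean was higher at day 4 for 34 of the 42 members and lower for 8. Of the 37 members with at least 10 normalized counts in at least 3 of the 24 libraries, 29 rose and 5 fell at an adjusted p below 0.05 in limma, a rule that called 82.9% of all 15114 genes tested (43.0% higher, 39.9% lower). Their median log2 change was 2.73, against 0.04 over all genes. Scaling to column totals in place of the authors' size factors moved that all-gene median by 0.13 and called 29 rises and 3 falls. The same comparison gave 30 rises and 4 falls in Mll1-KO (84.1% of genes called, 43.7% higher and 40.4% lower), 28 and 4 in Mll2-KO (81.5%, 41.9% and 39.6%) and 31 and 3 in the double-KO (83.3%, 43.2% and 40.1%). Time and the change of medium cannot be told apart in this comparison. The filter also shapes its counts. Of the 42 members, 24 passed it within the day 0 libraries and 35 within those of day 4. Members that entered only through day 4, where they are high, could hardly be called as falls. Col6a4 and Col6a5 entered only through day 0 and could hardly be called as rises. With 35 members passing within day 4 and 24 within day 0, the split of calls and the median lean towards rises.

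Levels between genes are compared per kilobase of transcript (GENCODE M21). Col18a1, a basement membrane proteoglycan whose C-terminal fragment is endostatin, was the most abundant member on both days, with 1620 normalized counts per kilobase at day 0 and 3060 at day 4 in WT. It made up 82.8% of the summed level of all members at day 0 and 50.5% at day 4, and that sum was 1960 ± 68.8 and 6071 ± 180 per kilobase. Next at day 4 came Col3a1 (908 per kilobase), Col5a1 (461), Col2a1 (309), Col12a1 (284), Col1a1 (162) and Col11a1 (101), mostly fibrillar chains. At day 0 they were Col9a2 (106), Col5a1 (37.4), Col13a1 (33.8) and Col9a3 (24.9).

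**Figure D1:**
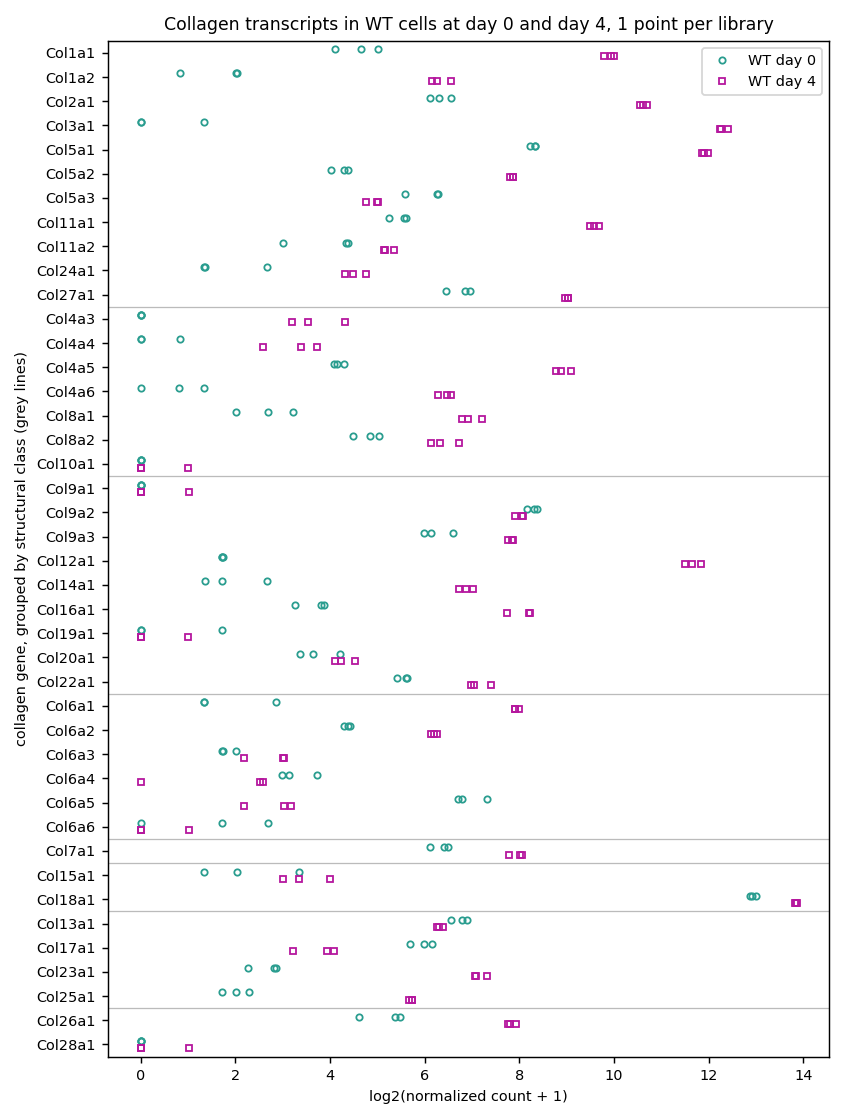
Level of each of the 42 collagen genes in WT as log2(normalized count + 1), with 1 point per library at day 0 and day 4 and the genes ordered by structural class. The mean is higher at day 4 for 34 genes, and Col6a5, Col17a1 and Col5a3 are among those that are lower.

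Col3a1, the chain of collagen III in vessel walls and skin, read 0, 1.52 and 0 normalized counts in the WT libraries of day 0 and 5397, 4899 and 4855 at day 4. With 2 reads at day 0 its ratio was 9890, with a 95% counting interval of 2740 to 81700, which covers counting error only. Col12a1, which coats collagen I fibrils, went from 2.28–2.33 to 2907–3673. Col1a1, the main chain of collagen I, rose from 24.0 ± 7.55 to 959 ± 70.6 (log2 change 5.31 ± 0.24, adjusted p = 8.8e-18). Col4a6 had 3 reads at day 0, and its ratio was 112 (interval 37.8 to 546). Of the chains that were abundant at day 4, Col3a1 and Col12a1 were thus close to absent in WT stem cell culture.

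Of the members that fell, Col6a5, an epithelial chain of collagen VI, read 158, 103 and 109 in WT at day 0 and 7.11, 8.02 and 3.53 at day 4 (log2 change -4.14 ± 0.38, adjusted p = 1.1e-10). Col17a1, the collagen of hemidesmosomes, fell from 61.3 ± 10.2 to 12.8 ± 4.08 (log2 change -2.21 ± 0.37, adjusted p = 4.5e-06), and Col5a3, a minor chain of collagen V, fell by 1.12 on the log2 scale (adjusted p = 1.9e-05). Col6a5 entered the test only through day 0, so a fall was its only likely call, and it fell in all 4 genotypes. Col5a3 was called as lower in all 4 too, but in Mll1-KO (-0.45) the call was lost with no filter on low values, with the replicate block, in edgeR, in DESeq2 and when scaled to column totals (adjusted p = 0.063, 0.055, 0.079, 0.078 and 0.32), and without Mll1-KO replicate 1 or 2 of day 0 or 2 or 3 of day 4 (adjusted p 0.078 to 0.28). Col6a4 and Col9a2 had adjusted p of 0.047 and 0.047, and the call of Col9a2 was lost without WT replicate 1 or 3 of day 0 or any WT replicate of day 4 (adjusted p 0.052 to 0.15) and when scaled to column totals (adjusted p = 0.28). The call of Col9a2 was also lost with no filter on low values (adjusted p = 0.058). Col13a1, Col20a1 and Col6a3 did not pass the test. Col10a1, Col28a1, Col19a1, Col9a1 and Col6a6 were too low to be tested, with at most 13 reads in any group on either day.

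At day 4 the collagen profile differed between genotypes. In Mll1-KO 17 of the 35 members tested were higher than in WT and 3 lower, where the rule called 35.8% of 14303 genes (16.5% higher, 19.2% lower). In Mll2-KO 6 were higher and 17 lower, with 45.7% of genes called (25.4% higher, 20.3% lower). In the double-KO 14 were higher and 14 lower, with 50.9% called (27.6% higher, 23.3% lower). The members' median log2 change was 0.41 in Mll1-KO, -0.19 in Mll2-KO and -0.16 in the double-KO, against 0, 0.04 and 0.03 over all genes. Their summed level per kilobase was 6071 ± 180 in WT, 7944 ± 144 in Mll1-KO, 6133 ± 91.8 in Mll2-KO and 9145 ± 305 in the double-KO. That sum mainly follows the most abundant members. Col18a1 made up 50.5% of it in WT, 48.1% in Mll1-KO, 48.5% in Mll2-KO and 45.3% in the double-KO. Per kilobase, Col18a1 went from 3060 in WT to 4150 in the double-KO and Col3a1 from 908 to 2270. In a fit of all 24 libraries 9 members were called in Mll1-KO and 15 in Mll2-KO.

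**Figure D2:**
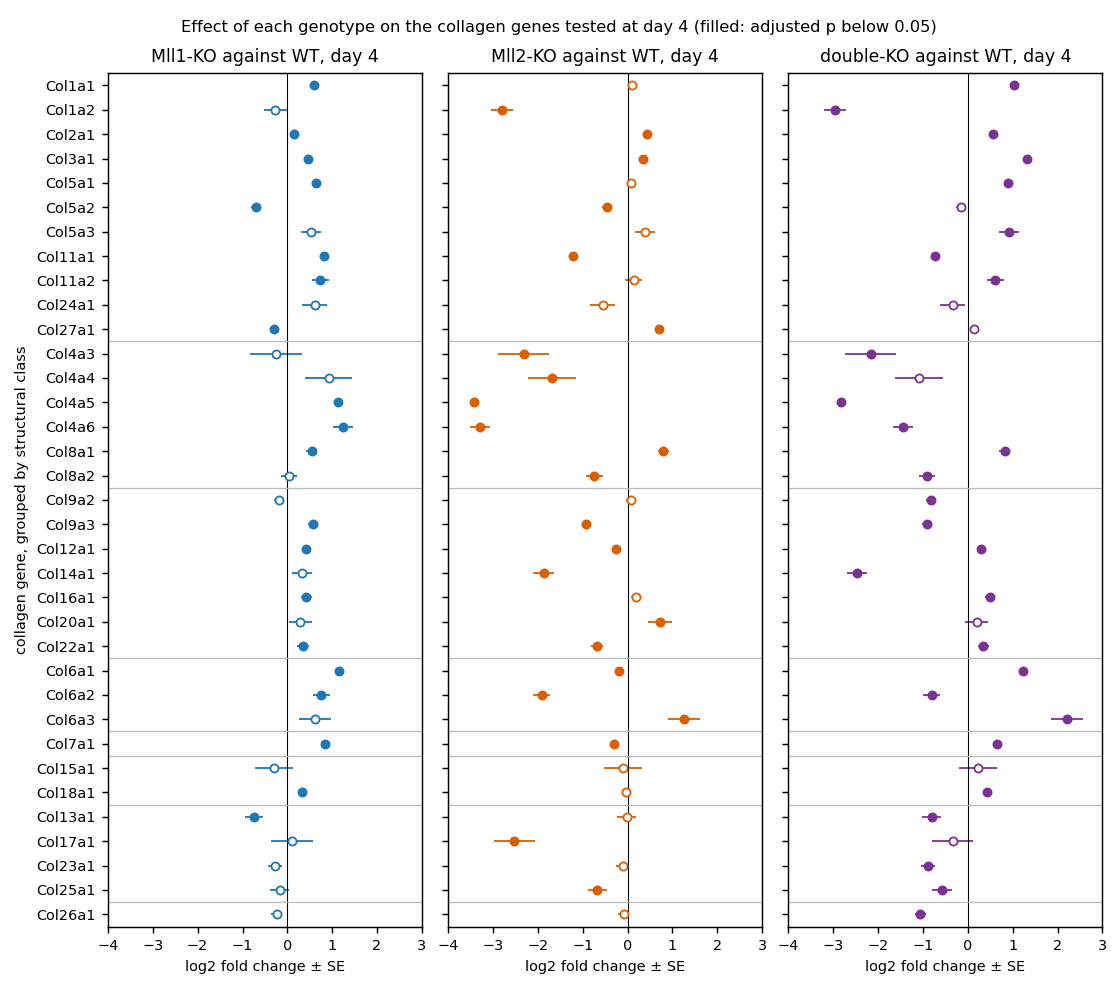
Log2 fold change against WT at day 4 with its SE from limma for the 35 collagen genes tested, in 1 panel each for Mll1-KO, Mll2-KO and double-KO, with filled points at an adjusted p below 0.05. Col4a5, Col4a6 and Col1a2 lie lowest in Mll2-KO at -3.42, -3.29 and -2.8, and Col6a3 highest in the double-KO at 2.22. Col6a3 passed the filter on low values only through the groups where it is high.

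The network collagens held the largest falls in Mll2-KO, where 5 of 6 tested fell and 1 rose. Col4a5, whose chain joins either those of Col4a3 and Col4a4 or that of Col4a6 in specialised basement membranes, read 548, 436 and 470.1 in WT, 1124, 1057 and 1014 in Mll1-KO, 48.0, 39.7 and 44.7 in Mll2-KO and 64.9, 69.0 and 68.4 in the double-KO. The 4 groups did not overlap. It fell 11.0-fold in Mll2-KO (log2 change -3.42 ± 0.10, adjusted p = 4.5e-18) and 7.19-fold in the double-KO (log2 change -2.82 ± 0.10, adjusted p = 5.6e-17), and rose in Mll1-KO (log2 change 1.14 ± 0.10, adjusted p = 4e-09). Its neighbour Col4a6 read 93.5, 77.2 and 87.2 in WT, 214, 228 and 175 in Mll1-KO, 10.8, 8.15 and 5.46 in Mll2-KO and 33.6, 35.3 and 25.1 in the double-KO. These groups were separate too, with the double-KO between WT and Mll2-KO. Col4a6 fell 10.6-fold in Mll2-KO (log2 change -3.29 ± 0.22, adjusted p = 8.8e-12) and 2.75-fold in the double-KO (log2 change -1.44 ± 0.22, adjusted p = 5.5e-06), and rose in Mll1-KO (log2 change 1.25 ± 0.22, adjusted p = 7.3e-05), a call that was narrowly lost with all 24 libraries in the fit (adjusted p = 0.05). The head-to-head pair thus fell in both groups without MLL2 and rose in Mll1-KO, where the call of Col4a6 rests on the fit of day 4 alone.

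The other head-to-head pair had few reads. Col4a3 read 8.13, 19.0 and 10.6 in WT and 0.980, 1.02 and 3.27 in Mll2-KO, from 36 and 5 reads (log2 change -2.32 ± 0.57, adjusted p = 0.0017), and it also fell in the double-KO (log2 change -2.16 ± 0.57, adjusted p = 0.0027). Col4a4 fell in Mll2-KO, from 25 reads to 6 (log2 change -1.68 ± 0.53, adjusted p = 0.011), and was at -1.09 in the double-KO (adjusted p = 0.088). Neither gene reached 10 normalized counts in any library of the groups without MLL2. Both passed the filter through WT and Mll1-KO libraries, where they are high, so a fall was the only likely call. They are among the network collagens counted above as falling in Mll2-KO. Col4a3 shares 289 exonic bases with C430014B12Rik on the opposite strand, and whether counting used strand is not given in the sources used here. In the same libraries Col4a1, among the parietal endoderm markers, read 94929–98354 in WT and 134474–138650 in Mll2-KO. The minor and the major type IV chains therefore lay on opposite sides of WT there.

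Col8a1 and Col8a2, partner chains of the collagen of Descemet's membrane and vessel walls, separated. Col8a1 read 109.6–146 in WT, 160.3–209 in Mll1-KO (0.54, adjusted p = 0.00085, or 0.1 with all 24 libraries in the fit), 205–241 in Mll2-KO and 212–238 in the double-KO. The last 2 were rises of 0.79 and 0.82 (adjusted p = 6.6e-06 and 2.8e-06). Col8a2 read 105, 69.2 and 78.9 in WT, 45.1, 53.0 and 50.2 in Mll2-KO and 45.9, 44.5 and 41.1 in the double-KO, and it fell by 0.74 and by 0.91 on the log2 scale (adjusted p = 0.0013 and 0.00013). Their ratio per kilobase was 1.28 ± 0.17 in WT, 1.85 ± 0.442 in Mll1-KO, 3.74 ± 0.414 in Mll2-KO and 4.30 ± 0.29 in the double-KO.

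**Figure D3:**
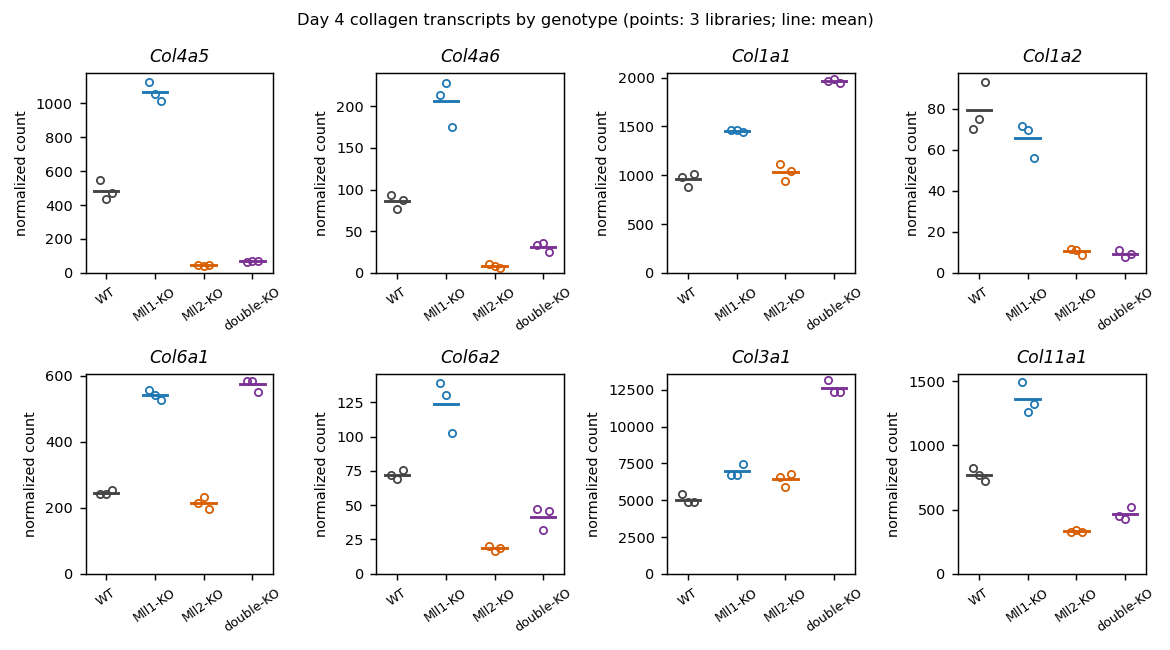
Normalized counts at day 4 on linear y axes from 0 for selected collagen genes in the 4 genotypes, with 1 point per library and a line at the mean of 3. Col4a5, Col4a6 and Col6a2 are lowest in Mll2-KO and Col1a2 is low in both groups without MLL2, while Col1a1 and Col3a1 are highest in the double-KO.

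Of 11 fibrillar members, 6 rose and 2 fell in Mll1-KO, 3 rose and 3 fell in Mll2-KO, and 6 rose and 2 fell in the double-KO. The chains of collagen I parted. Col1a1 (chromosome 11, 94936224 to 94953042, plus strand) read 983, 880.1 and 1016 in WT, 1468, 1459 and 1443 in Mll1-KO, 1117, 943 and 1042 in Mll2-KO and 1963, 1990 and 1941 in the double-KO. It rose in Mll1-KO (log2 change 0.60 ± 0.06, adjusted p = 8.6e-09, or 0.058 with all 24 libraries in the fit) and the double-KO (log2 change 1.04 ± 0.06, adjusted p = 1.6e-13) and overlapped WT in Mll2-KO (log2 change 0.11 ± 0.06, adjusted p = 0.14). Col1a2 (chromosome 6, 4504814 to 4541544, plus strand) read 70.1, 75.2 and 93.1 in WT, 71.7, 69.5 and 56.1 in Mll1-KO, 11.8, 11.2 and 8.73 in Mll2-KO and 11.2, 7.67 and 9.12 in the double-KO. It fell in both groups without MLL2 (log2 change -2.8 ± 0.25, adjusted p = 1.3e-09 in Mll2-KO; log2 change -2.97 ± 0.25, adjusted p = 3e-10 in the double-KO), while Mll1-KO overlapped WT. Per kilobase the ratio of Col1a1 to Col1a2 was 11.0 ± 1.45 in WT, 20.2 ± 2.61 in Mll1-KO, 89.7 ± 16.3 in Mll2-KO and 195 ± 38 in the double-KO. Collagen I of most tissues is built from both chains.

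Col11a1, a chain of cartilage fibrils, read 825, 767 and 725 in WT, 1496, 1261 and 1325 in Mll1-KO, 329, 343 and 323 in Mll2-KO and 452, 428 and 521 in the double-KO. No groups overlapped, and the changes were 0.82, -1.21 and -0.73 (SE 0.07, adjusted p = 4.1e-09, 1.9e-12 and 1e-08). Col2a1, the main collagen of cartilage, rose instead from 1500–1657 in WT to 2050–2191 in Mll2-KO (log2 change 0.44 ± 0.05, adjusted p = 4.6e-08) and 2206–2412 in the double-KO (log2 change 0.55 ± 0.05, adjusted p = 4.5e-10). Its call of 0.15 in Mll1-KO was lost without WT replicate 3 or Mll1-KO replicate 3 (adjusted p 0.054 to 0.082) and with all 24 libraries in the fit (adjusted p = 0.37). Col11a2, their partner, rose by 0.74 in Mll1-KO and 0.61 in the double-KO from a WT mean of 36.2, and both calls were lost with all 24 libraries in the fit (adjusted p = 0.081 and 0.12). The 9 cartilage and notochord markers summed to 1061 to 1332 in WT, 1316 to 1353 in Mll1-KO, 1015 to 1063 in Mll2-KO and 945 to 1031 in the double-KO, with Noto at 0 in all groups but Mll1-KO, and their part was not tested.

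Col3a1 rose from 4855–5397 in WT to 13150, 12365 and 12361 in the double-KO (2.50-fold, log2 change 1.32 ± 0.05, adjusted p = 2.5e-16). It rose by 0.47 in Mll1-KO and 0.34 in Mll2-KO, calls that were lost with all 24 libraries in the fit (adjusted p = 0.47 and 0.57). Col5a1, which helps collagen I fibrils to form, read 3712–4074 in WT, 5805–6327 in Mll1-KO (log2 change 0.63 ± 0.04, adjusted p = 3.3e-11), 6926–7496 in the double-KO (log2 change 0.90 ± 0.04, adjusted p = 1.3e-14) and 3988–4170 in Mll2-KO, where it overlapped WT. Its partner Col5a2 read 222–233 in WT and fell to 129–153 in Mll1-KO (log2 change -0.70 ± 0.11, adjusted p = 9.7e-06) and 152–181 in Mll2-KO (log2 change -0.45 ± 0.11, adjusted p = 0.0011), and both calls were lost with all 24 libraries in the fit (adjusted p = 0.096 and 0.27). The 5 smooth and striated muscle markers summed to 29216 to 34238 in WT, 30298 to 37190 in Mll1-KO, 30630 to 39862 in Mll2-KO and 57474 to 67020 in the double-KO. In WT, Acta2 (mean 12900) and Tagln (17900) made up most of the sum, with Myog at 0 and Myod1 at 0.334. The part of these markers in the rise of Col3a1 and Col5a1 was not tested. Col27a1, a minor fibrillar collagen, rose in Mll2-KO, from 496–523 to 785–871 (log2 change 0.70 ± 0.07, adjusted p = 5.6e-09), fell in Mll1-KO (log2 change -0.30 ± 0.07, adjusted p = 0.00093, or 0.11 with all 24 libraries in the fit) and read 543–589 in the double-KO (adjusted p = 0.069). Col5a3 rose in the double-KO (log2 change 0.93 ± 0.22, adjusted p = 0.00096), and Col24a1 passed the test in no mutant.

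**Figure D4:**
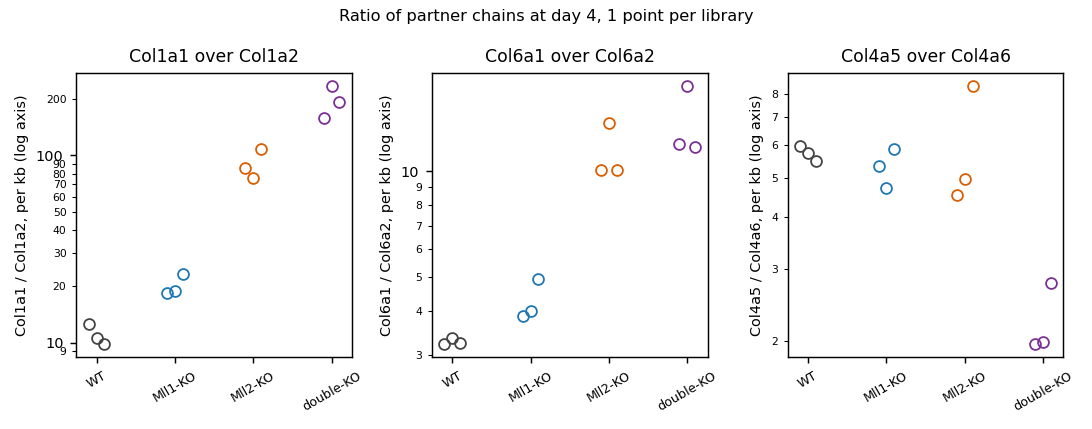
Ratio of partner chains at day 4 in each of the 12 libraries, from levels per kilobase on a log y axis. The mean ratio of Col1a1 to Col1a2 is 11.0 in WT and 195 in the double-KO, that of Col6a1 to Col6a2 is 3.27 and 13.7, and that of Col4a5 to Col4a6 is 5.73 and 2.24.

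Collagen VI, a beaded microfibril of muscle and connective tissue, joins the chains of Col6a1, Col6a2 and Col6a3. Col6a1 read 241, 241 and 253 in WT, 558, 541 and 526 in Mll1-KO, 216, 232 and 195 in Mll2-KO and 584, 586 and 552 in the double-KO. It rose in Mll1-KO (log2 change 1.14 ± 0.08, adjusted p = 1.3e-11) and the double-KO (log2 change 1.23 ± 0.08, adjusted p = 1.3e-12). The fall in Mll2-KO (log2 change -0.19 ± 0.08, adjusted p = 0.04) was lost with all 24 libraries in the fit (adjusted p = 0.76), under DESeq2 (adjusted p = 0.084) and without WT replicate 1 or 2 or 3 or Mll2-KO replicate 1 or 3 (adjusted p 0.058 to 0.21). Col6a2, on the same strand with its start 102538 bases away, read 72.1, 69.2 and 75.4 in WT, 139, 130.2 and 102 in Mll1-KO, 20.6, 16.3 and 18.5 in Mll2-KO and 47.0, 32.2 and 45.6 in the double-KO. It rose in Mll1-KO (log2 change 0.76 ± 0.19, adjusted p = 0.0032) and fell in Mll2-KO (log2 change -1.92 ± 0.19, adjusted p = 1.3e-08) and the double-KO (log2 change -0.80 ± 0.19, adjusted p = 0.0012), and the calls in Mll1-KO and the double-KO were lost with all 24 libraries in the fit (adjusted p = 0.17 and 0.11). The ratio of Col6a1 to Col6a2 per kilobase was 3.27 ± 0.0728 in WT, 4.27 ± 0.591 in Mll1-KO, 11.3 ± 2.08 in Mll2-KO and 13.7 ± 3.3 in the double-KO. Col6a3 was low and rose from 3.53–7.11 in WT to 12.2–19.6 in Mll2-KO (log2 change 1.26 ± 0.36, adjusted p = 0.0059) and 24.6–36.8 in the double-KO (log2 change 2.22 ± 0.36, adjusted p = 1.3e-05). No WT library of Col6a3 reached 10 normalized counts, and every Mll2-KO and double-KO library did. Col6a3 thus passed the filter through the groups where it is high, and a rise was the only likely call. It is among the members counted above as higher in both groups. Col6a4, Col6a5 and Col6a6 were not tested at day 4, with at most 24 reads in any group.

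Among the fibril-associated collagens, 4 of 7 tested rose in Mll1-KO, 1 rose and 4 fell in Mll2-KO, and 3 rose and 3 fell in the double-KO. Col14a1, which binds collagen I fibrils in skin and tendon, read 129, 104 and 117 in WT, 139, 140.1 and 159.8 in Mll1-KO, 42.1, 32.6 and 21.8 in Mll2-KO and 13.4, 23.0 and 26.2 in the double-KO. It fell in both groups without MLL2 (log2 change -1.87 ± 0.23, adjusted p = 2.7e-07 in Mll2-KO; log2 change -2.47 ± 0.23, adjusted p = 1.7e-09 in the double-KO) and did not pass the test in Mll1-KO (log2 change 0.33 ± 0.23, adjusted p = 0.28). Its relative Col12a1 changed less, by 0.41, -0.26 and 0.30 in Mll1-KO, Mll2-KO and the double-KO, and all 3 calls were lost with all 24 libraries in the fit (adjusted p = 0.19, 0.39 and 0.31).

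Col9a3, of the cartilage collagen IX, read 214–233 in WT, 319–346 in Mll1-KO (log2 change 0.56 ± 0.10, adjusted p = 8e-05), 112–124 in Mll2-KO (log2 change -0.92 ± 0.10, adjusted p = 4.3e-08) and 109–126 in the double-KO (log2 change -0.92 ± 0.10, adjusted p = 3e-08). It shares 234 exonic bases with Tcfl5 on the opposite strand. Its partner Col9a2 fell in the double-KO, from 239.8–269 to 117–168 (log2 change -0.82 ± 0.11, adjusted p = 1.3e-06), and passed the test in neither single mutant. Col22a1, found at tissue junctions, fell in Mll2-KO from 124–169 to 84.6–89.5 (log2 change -0.68 ± 0.13, adjusted p = 0.00012). Its calls of 0.35 in Mll1-KO and 0.35 in the double-KO overlapped WT and were lost under DESeq2 (adjusted p = 0.064 and 0.086), with all 24 libraries in the fit (0.26 and 0.21), in Mll1-KO without WT replicate 2 or 3 or Mll1-KO replicate 1 or 2 (adjusted p 0.064 to 0.2) and in the double-KO without WT replicate 2 or 3 or double-KO replicate 1 or 2 (adjusted p 0.059 to 0.14). The calls of Col22a1 were also lost in Mll1-KO with no filter on low values (adjusted p = 0.063) and in the double-KO when scaled to column totals (adjusted p = 0.071). Col16a1 rose by 0.42 in Mll1-KO, which was lost without WT replicate 3 (adjusted p = 0.075), and by 0.50 in the double-KO. With all 24 libraries in the fit neither passed (adjusted p = 0.15 and 0.064). Col20a1 rose in Mll2-KO (log2 change 0.72 ± 0.26, adjusted p = 0.028).

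None of the 4 transmembrane collagens rose. Col17a1 fell in Mll2-KO from 14.2, 16.0 and 8.25 to 0.980, 2.04 and 1.09, or from 37 reads to 4 (log2 change -2.53 ± 0.46, adjusted p = 7.8e-05), and overlapped WT at 5.70–12.3 in the double-KO. It reached 10 normalized counts in no Mll2-KO library, so it passed the filter through the groups where it is higher. Col13a1, a collagen of the neuromuscular junction, fell from 75.4–83.2 to 35.2–54.7 in Mll1-KO (log2 change -0.74 ± 0.21, adjusted p = 0.0066), which was lost without Mll1-KO replicate 1 (adjusted p = 0.054). In the double-KO it fell to 38.8–58.2 (log2 change -0.80 ± 0.21, adjusted p = 0.0023). Col23a1 fell in the double-KO from 133–159 to 64.9–104 (log2 change -0.89 ± 0.15, adjusted p = 2.9e-05, or 0.16 with all 24 libraries in the fit). Col25a1 fell by 0.67 in Mll2-KO and by 0.57 in the double-KO on the log2 scale. The former call was lost without Mll2-KO replicate 1 (adjusted p = 0.073) and the latter without WT replicate 1 or 2 or 3 or double-KO replicate 1 or 3 (adjusted p 0.06 to 0.097), and with all 24 libraries in the fit neither passed (adjusted p = 0.27 and 0.34). The call in the double-KO was also lost with no filter on low values and in DESeq2 (adjusted p = 0.07 and 0.058).

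Col7a1, the anchoring fibril of skin, read 218–266 in WT, 395–474 in Mll1-KO (log2 change 0.83 ± 0.09, adjusted p = 6.6e-08), 191–209 in Mll2-KO (log2 change -0.30 ± 0.09, adjusted p = 0.0089) and 378–408 in the double-KO (log2 change 0.66 ± 0.09, adjusted p = 1e-06). The fall in Mll2-KO was lost without WT replicate 1 (adjusted p = 0.055) and with all 24 libraries in the fit (adjusted p = 0.061). Col18a1 read 14418–14848 in WT and rose to 17963–18934 in Mll1-KO (log2 change 0.32 ± 0.04, adjusted p = 5.8e-07) and 18761–20760 in the double-KO (log2 change 0.44 ± 0.04, adjusted p = 1.3e-09), and was 14134–14416 in Mll2-KO (adjusted p = 0.4). Col26a1 fell in the double-KO from 216–243 to 98.1–121 (log2 change -1.06 ± 0.12, adjusted p = 9.7e-08). Col15a1 passed the test in no mutant.

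Against Mll1-KO at day 4, the double-KO had 8 members higher and 14 lower (54.8% of genes called, 31.1% higher and 23.7% lower). The falls were led by Col4a5 (-3.96), Col14a1 (-2.8), Col1a2 (-2.7) and Col4a6 (-2.68). Against Mll2-KO, 18 members were higher and 6 lower (40.3% of genes called, 19.4% higher and 20.9% lower), or 14 in all with 24 libraries in the fit. The rises were led by Col17a1 (2.19), Col4a6 (1.85), Col6a1 (1.42) and Col6a2 (1.12) and the falls by Col26a1 (-0.97) and Col9a2 (-0.89). Col4a5 was higher by 0.60 than in Mll2-KO, a call lost with 24 libraries in the fit (adjusted p = 0.22), and Col1a2 did not pass the test (log2 change -0.17 ± 0.25, adjusted p = 0.63). Both comparisons share the double-KO libraries.

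At day 0, 24 members could be tested. Mll1-KO had 3 higher and 2 lower (40.0% of 13984 genes called, 21.3% higher and 18.7% lower), Mll2-KO 4 and 3 (47.2%, 22.8% and 24.3%) and the double-KO 4 and 7 (53.7%, 26.6% and 27.1%). As shares of the members tested these were 20.8%, 29.2% and 45.8%, each below the share of all genes. Scaled to column totals the Mll1-KO split was 3 and 4. With all 24 libraries in the fit 14 members were called in Mll2-KO, and with a minimum of 50 normalized counts 6 were called in the double-KO.

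**Figure D5:**
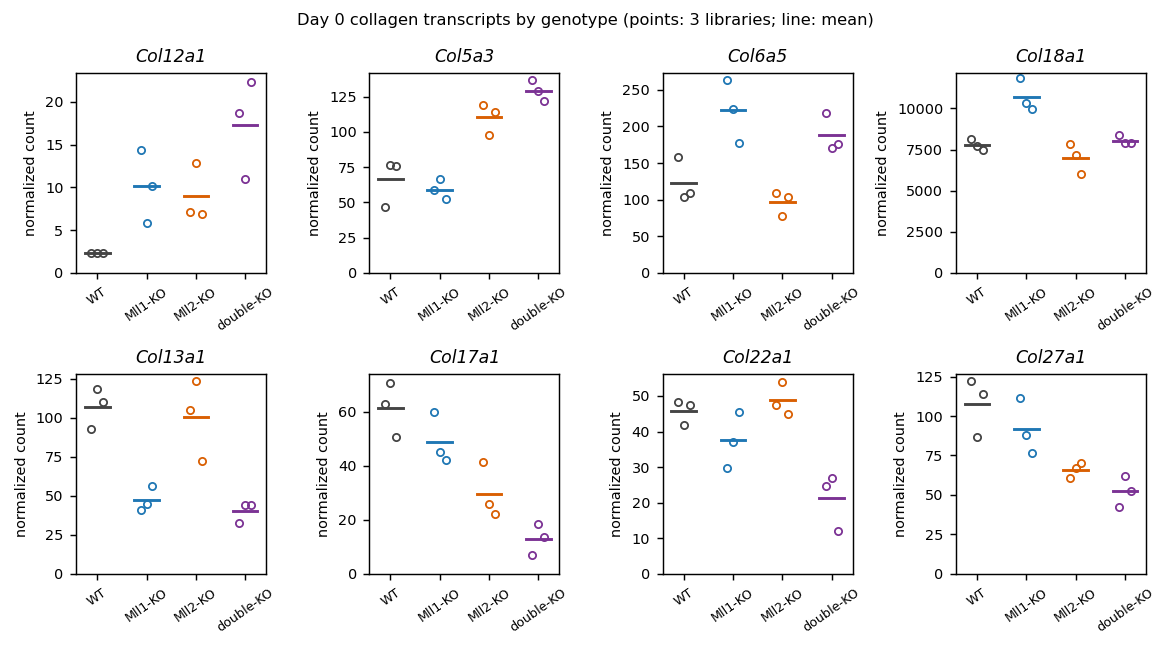
Normalized counts at day 0 on linear y axes from 0 for selected collagen genes in the 4 genotypes, with 1 point per library and a line at the mean of 3. Col13a1 has means of 47.5 in Mll1-KO and 40.1 in the double-KO against 107 in WT, and Col5a3 has 110.0 in Mll2-KO and 129 in the double-KO against 66.5.

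Col12a1 rose in all 3 mutants at day 0, from 2.30, 2.28 and 2.33 in WT to 14.4, 5.86 and 10.1 in Mll1-KO, 7.16, 12.9 and 6.86 in Mll2-KO and 18.7, 10.9 and 22.4 in the double-KO. No mutant library overlapped WT, but the WT libraries held 9 reads in all, and the rise in Mll2-KO was lost without Mll2-KO replicate 2 (adjusted p = 0.061). Only mutant libraries reached 10 normalized counts. Col12a1 thus passed the filter through the groups where it is high, and a rise was the only likely call. It is among the members counted above as higher in each mutant. The changes were 1.68, 1.54 and 2.42 (SE 0.47, adjusted p = 0.0078, 0.011 and 0.00023). Col5a3 rose in both groups without MLL2, from 46.7, 76.7 and 76.1 in WT to 119, 97.5 and 114 in Mll2-KO (log2 change 0.75 ± 0.18, adjusted p = 0.0023) and 137, 129 and 122 in the double-KO (log2 change 0.98 ± 0.18, adjusted p = 0.00015). Col6a5 rose in both groups without MLL1, from 158, 103 and 109 to 263, 225 and 178 in Mll1-KO (log2 change 0.85 ± 0.18, adjusted p = 0.00062) and 218, 170.1 and 175 in the double-KO (log2 change 0.62 ± 0.18, adjusted p = 0.0055), calls lost with all 24 libraries in the fit (adjusted p = 0.08 and 0.18). Col18a1 rose in Mll1-KO, from 7452–8135 to 9944–11850 (log2 change 0.46 ± 0.07, adjusted p = 4.7e-05).

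Col13a1 fell in both groups without MLL1 at day 0, from 92.6, 118 and 110.3 in WT to 41.2, 44.9 and 56.5 in Mll1-KO (log2 change -1.16 ± 0.21, adjusted p = 0.00017) and 32.5, 43.8 and 43.8 in the double-KO (log2 change -1.4 ± 0.21, adjusted p = 1.2e-05), and overlapped WT in Mll2-KO. Parietal endoderm markers were also low in those groups, with sums of 46857 to 49360 in WT, 18183 to 19789 in Mll1-KO, 53001 to 56644 in Mll2-KO and 20472 to 20854 in the double-KO, and their part in the change of Col13a1 and Col6a5 was not tested. Col17a1 fell from 62.8, 70.6 and 50.5 in WT to 41.2, 25.8 and 22.1 in Mll2-KO (log2 change -1.06 ± 0.32, adjusted p = 0.0094) and 6.90, 18.5 and 13.8 in the double-KO (log2 change -2.23 ± 0.32, adjusted p = 6e-06). Col27a1 fell in the same groups, from 86.6–123 to 60.9–70.2 (log2 change -0.69 ± 0.19, adjusted p = 0.0061) and 42.4–62.3 (log2 change -1.03 ± 0.19, adjusted p = 0.00014), opposite to its day 4 direction in Mll2-KO.

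Col22a1 fell in the double-KO at day 0, from 41.8–48.2 to 12.0–26.9 (log2 change -1.15 ± 0.27, adjusted p = 0.0015), as did Col5a1 (log2 change -0.36 ± 0.10, adjusted p = 0.0042). Col9a2 rose in Mll2-KO, from 283–330.1 to 360.0–509 (log2 change 0.53 ± 0.11, adjusted p = 0.00062). The remaining calls were each lost without at least 1 library, and some of them under other settings too. Col11a1 fell in Mll2-KO (-0.73), lost without WT replicate 1 or 3 or Mll2-KO replicate 3 (adjusted p 0.093 to 0.24), and in the double-KO (-0.67), lost without WT replicate 1 or 3 or double-KO replicate 2 or 3 (adjusted p 0.062 to 0.14). Col6a2 fell in the double-KO (-1.26), lost without WT replicate 1 or 2 or 3 or double-KO replicate 1 or 2 (adjusted p 0.086 to 0.19). Col16a1 rose in the double-KO (1.08), lost without WT replicate 3 (adjusted p = 0.071). Col9a3 fell in Mll1-KO (-0.66), lost without WT replicate 3 (adjusted p = 0.099), and rose in Mll2-KO (0.52), lost without WT replicate 1 or 2 or Mll2-KO replicate 1 or 2 (adjusted p 0.092 to 0.17). With no filter on low values, Col11a1 and Col9a3 were lost in Mll2-KO (adjusted p = 0.068 and 0.073). Col11a1 and Col6a2 were then lost in the double-KO (adjusted p = 0.083 and 0.068). Col6a2 was also lost there with a pseudocount of 0.5, in edgeR and in DESeq2 (adjusted p = 0.051, 0.051 and 0.055). Compared directly, the double-KO had 4 members higher and 5 lower than Mll1-KO (41.0% of genes called, 18.9% higher and 22.0% lower) and 2 and 4 than Mll2-KO (47.7%, 23.4% and 24.3%). With all 24 libraries in the fit these were 15 and 11 members in all, and scaled to column totals the latter split was 1 and 4.

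The effect of a genotype also differed between the days for some members, by an interaction term over all 24 libraries. For Mll1-KO 7 of 37 members had a higher log2 fold change against WT at day 4 than at day 0 and 2 a lower one (34.0% of genes called, 15.0% higher and 19.0% lower). For Mll2-KO these were 3 and 10 (36.3%, 19.3% and 17.0%), with Col4a6 (-3.54), Col1a2 (-2.31) and Col4a5 (-2.3) among the lower. For the double-KO they were 8 and 7 (39.4%, 20.3% and 19.2%), with Col14a1 lowest (-3.49) and Col17a1 highest (1.89). As shares of the members tested the calls in either direction were 24.3%, 35.1% and 40.5%, below or near the shares of all genes. The call of Col1a2 for Mll2-KO was lost without WT replicate 1 of day 0 or Mll2-KO replicate 2 of day 0 (adjusted p = 0.062 and 0.065). At day 0 the WT libraries held 3 reads of Col4a6, 9 of Col1a2 and 12 of Col14a1. The lower members for Mll2-KO and the double-KO include Col4a3. It had 0 reads at day 0 in these groups and in WT, so its term only repeats its day 4 change.

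The genes that make and handle collagen were read from 4 lists, and single values in parentheses are log2 changes against WT. Of all genes tested at day 4, the shares called higher and lower were 16.5% and 19.2% in Mll1-KO, 25.4% and 20.3% in Mll2-KO and 27.6% and 23.3% in the double-KO. At day 0 they were 21.3% and 18.7%, 22.8% and 24.3%, and 26.6% and 27.1%. Of 23 chain modification and folding genes at day 4, 5 were higher and 14 lower in Mll1-KO, 14 and 5 in Mll2-KO and 8 and 8 in the double-KO. Of the 12 parietal endoderm markers, 0 were higher and 10 lower in Mll1-KO, 9 and 1 in Mll2-KO and 3 and 5 in the double-KO in the same libraries. P4ha2, a subunit of collagen prolyl 4-hydroxylase, rose from 2212 ± 63.6 in WT to 4146 ± 67.5 in Mll2-KO (0.91) and 3323 ± 111 in the double-KO (0.59), and fell to 1504 ± 80.3 in Mll1-KO (-0.56). Colgalt2, a collagen galactosyltransferase, fell in Mll2-KO (-1.32) and the double-KO (-1.44), and P4ha1, another prolyl 4-hydroxylase subunit, fell in Mll1-KO (-0.62) and rose in Mll2-KO (0.54) and the double-KO (0.15). At day 0, 1 of 22 tested was higher and 11 were lower in Mll1-KO, 8 and 4 in Mll2-KO and 1 and 12 in the double-KO. The parietal endoderm markers had 0 higher and 11 lower of 12 in Mll1-KO, 4 and 0 in Mll2-KO and 0 and 10 in the double-KO. Their part in the counts of this list was tested on neither day. At day 0 P4ha2 fell from 1174 ± 55.2 to 161.4 ± 7.88 in Mll1-KO (-2.86), 750.4 ± 97.8 in Mll2-KO (-0.65) and 173.6 ± 9.19 in the double-KO (-2.75), opposite to its day 4 direction in Mll2-KO and the double-KO. The lysyl hydroxylase Plod2 fell from 3411 ± 206 to 1147 ± 34.8 in Mll1-KO (-1.57), 1337 ± 61.4 in Mll2-KO (-1.35) and 622 ± 76.5 in the double-KO (-2.46).

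Of 14 procollagen cleavage and crosslinking genes at day 4, 6 were higher and 1 lower in Mll1-KO, 3 and 6 in Mll2-KO and 5 and 4 in the double-KO, beside the all-gene shares of 16.5% and 19.2% in Mll1-KO, 25.4% and 20.3% in Mll2-KO and 27.6% and 23.3% in the double-KO. Sparc is on both this list and that of the parietal endoderm markers. Pcolce, the enhancer of procollagen C-proteinase, rose from 454.1 ± 21.5 in WT to 925.4 ± 45 in Mll1-KO (1.03) and 855 ± 11.5 in the double-KO (0.91). The C-proteinase Bmp1 rose in all 3 mutants, from 1434 ± 19.6 to 2216 ± 218 in Mll1-KO (0.62), 1771 ± 35.3 in Mll2-KO (0.30) and 2855 ± 153 in the double-KO (0.99). At day 0 the crosslinking enzyme Loxl2 fell from 855 ± 108 to 161.2 ± 14.2 in Mll1-KO (-2.4), 225.1 ± 32.7 in Mll2-KO (-1.92) and 201.6 ± 7.79 in the double-KO (-2.07).

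Of 8 collagen receptor genes at day 4, 2 were higher and 1 lower in Mll1-KO, 1 and 3 in Mll2-KO and 3 and 2 in the double-KO. With 8 genes, none of these counts is read as particular to the receptors beside the all-gene shares of 35.8%, 45.7% and 50.9% called in either direction. The integrin subunit Itgb1 rose from 15510 ± 851 to 25170 ± 535 in the double-KO (0.70) and by 0.18 in Mll2-KO, and its partner Itga1 fell in Mll2-KO (-0.96) and the double-KO (-1.06). Of 8 genes for collagen breakdown, 2 were higher and 3 lower in Mll1-KO, 3 and 4 in Mll2-KO and 3 and 3 in the double-KO, again with 8 genes beside those shares. The gelatinase Mmp2 fell from 986 ± 38.6 in WT to 170.7 ± 8.25 in Mll2-KO (-2.52) and 88.55 ± 14.2 in the double-KO (-3.47). The membrane protease Mmp16 fell in the same groups (-2.34 and -1.89) and rose in Mll1-KO (0.96). The other gelatinase, Mmp9, rose in Mll2-KO (1.88) and the double-KO (1.21) and fell in Mll1-KO (-1.0).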

How the data were processed

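The 24 libraries were made from polyA RNA. The deposited table holds normalized counts (a signal in which each gene count is divided by 1 size factor per library, as the values themselves show), and 100.0% of values returned whole reads within 1e-06. Per the submitters' processing notes, reads were trimmed (Trim Galore 3.4), and the tools named for the mm10 genome are RSEM 1.3.1, DESeq2 1.34.0, SAMtools 1.13 and the aligner STAR 2.7.10a, so the reads may be rounded RSEM estimates. Differences were tested with limma 3.58.1 (R 4.3.3, trended variance) on log2(normalized count + 1), in genes that reached 10 in 3 or more libraries of the fit (12 libraries per day, all 24 across days). P-values were adjusted by Benjamini-Hochberg over all genes tested in each of 17 comparisons. Fold changes on this scale understate the change of low genes. Values after ± are SD over 3 libraries for levels and ratios and SE for log2 fold changes. Fold values are ratios of means. Every member may be named, with values in each library mainly for called members with a group mean of at least 50 and for partner chains; from other lists, the 2 largest called rises and falls per comparison were candidates. Members and lists were chosen with earlier results of these data known. Same-numbered libraries did not deviate together. edgeR 4.0.16 and DESeq2 1.42.0 were alternatives.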

Additional observations from a re-analysis of the deposited data

Results flagged for a closer look

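The effect of a genotype on a collagen gene was compared between the days by an interaction term over all 24 libraries (limma, Benjamini-Hochberg adjusted p below 0.05), as the log2 fold change against WT at day 4 minus that at day 0. For Mll1-KO the test called 7 of 37 members as higher and 2 as lower (34.0% of genes called). Among members with a group mean of at least 50, the difference was positive for Col11a1 (0.81), Col16a1 (0.83), Col5a1 (0.83), Col6a2 (1.6), Col7a1 (0.84) and Col9a3 (1.22) and negative for Col12a1 (-1.27) and Col6a5 (-2.3). For Mll2-KO the test called 3 of 37 members as higher and 10 as lower (36.3% of genes called). Among members with a group mean of at least 50, the difference was positive for Col27a1 (1.39), Col2a1 (0.48) and Col5a1 (0.28) and negative for Col12a1 (-1.8), Col14a1 (-1.91), Col17a1 (-1.47), Col1a2 (-2.31), Col4a5 (-2.3), Col4a6 (-3.54), Col7a1 (-0.54), Col9a2 (-0.47) and Col9a3 (-1.44). For double-KO the test called 8 of 37 members as higher and 7 as lower (39.4% of genes called). Among members with a group mean of at least 50, the difference was positive for Col17a1 (1.89), Col18a1 (0.38), Col1a1 (1.13), Col22a1 (1.5), Col27a1 (1.18), Col2a1 (0.88), Col5a1 (1.26) and Col7a1 (0.59) and negative for Col12a1 (-2.12), Col14a1 (-3.49), Col1a2 (-2.67), Col4a5 (-2.15), Col9a2 (-0.84) and Col9a3 (-1.0). The others called were Col24a1 for Mll1-KO (1.79) and Col4a3 for Mll2-KO (-2.32) and the double-KO (-2.16). In all, 24.3% of members were called for Mll1-KO, 35.1% for Mll2-KO and 40.5% for the double-KO, below or near the shares of all genes. Col4a3 had 0 reads at day 0 in WT, Mll2-KO and the double-KO. Both its values therefore only repeat its day 4 changes and measure no change of effect between days. Scaled to column totals, the Mll2-KO split was 1 higher and 12 lower. Several rest on genes with very few reads at day 0, such as Col12a1 (9 reads in WT), Col4a6 (3), Col1a2 (9), Col14a1 (12) and Col24a1 (11). The calls lost without single libraries were these. For Mll1-KO the call of Col16a1 was lost without day 0 WT replicate 1 or 2 or day 0 Mll1-KO replicate 2 or 3 or day 4 WT replicate 3 or day 4 Mll1-KO replicate 2 or 3 (adjusted p 0.062 to 0.11). For Mll1-KO the call of Col6a2 was lost without day 0 WT replicate 2 or day 0 Mll1-KO replicate 1 or 2 or day 4 WT replicate 2 or day 4 Mll1-KO replicate 1 or 2 (adjusted p 0.05 to 0.081). For Mll2-KO the call of Col17a1 was lost without day 0 WT replicate 3 or day 0 Mll2-KO replicate 1 or day 4 WT replicate 1 or 2 or day 4 Mll2-KO replicate 1 or 3 (adjusted p 0.057 to 0.086). For Mll2-KO the call of Col1a2 was lost without day 0 WT replicate 1 or day 0 Mll2-KO replicate 2 (adjusted p 0.062 to 0.065). For Mll2-KO the call of Col2a1 was lost without day 0 WT replicate 3 or day 0 Mll2-KO replicate 3 or day 4 WT replicate 3 or day 4 Mll2-KO replicate 3 (adjusted p 0.054 to 0.097). For Mll2-KO the call of Col5a1 was lost without day 0 Mll2-KO replicate 3 or day 4 WT replicate 3 (adjusted p 0.05 to 0.068). For Mll2-KO the call of Col7a1 was lost without day 0 WT replicate 2 or day 4 WT replicate 1 (adjusted p 0.051 to 0.062). For Mll2-KO the call of Col9a2 was lost without day 0 WT replicate 2 or day 0 Mll2-KO replicate 1 or 2 or day 4 WT replicate 2 or 3 or day 4 Mll2-KO replicate 1 or 3 (adjusted p 0.067 to 0.11). Some calls were also lost under other settings. For Mll1-KO, Col16a1 was lost with no filter on low values, in edgeR and in DESeq2 (adjusted p = 0.051, 0.08 and 0.07), Col6a2 with no filter (adjusted p = 0.052) and Col12a1 with a pseudocount of 5, where its difference was -0.6 (adjusted p = 0.051). For Mll2-KO, Col17a1 was lost with a pseudocount of 5, where its difference was -0.5 (adjusted p = 0.31), and with no filter (adjusted p = 0.052). For Mll2-KO, Col1a2 was lost with a pseudocount of 0.5 and in edgeR (adjusted p = 0.088 and 0.056). Scaled to column totals, Col2a1 (0.39, adjusted p = 0.078) and Col5a1 (0.19, adjusted p = 0.12) were lost for Mll2-KO.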

How the results depend on the processing

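Of 291 called differences in members with a group mean of at least 50, 58 lost the call under at least 1 of 9 other settings and 37 without at least 1 library, and 0 changed sign in any of these. Of 174 that were not called, 66 changed sign and 44 were called under at least 1 setting. With all 24 libraries in the fit the members called were 14 in Mll2-KO, 15 in the double-KO against Mll1-KO and 11 against Mll2-KO at day 0, and 9 in Mll1-KO, 15 in Mll2-KO and 14 in the double-KO against Mll2-KO at day 4. With at least 50 normalized counts in 3 libraries the double-KO had 6 at day 0, where fewer genes were tested, and the cause of the other shifts was not tested. Without 1 library, the members called at day 0 were 4 to 7 for Mll1-KO (of 5), 5 to 8 for Mll2-KO (of 7), 8 to 11 for double-KO (of 11), 6 to 8 for double-KO against Mll1-KO (of 9) and 6 for double-KO against Mll2-KO (of 6). At day 4 they were 17 to 20 for Mll1-KO (of 20), 19 to 23 for Mll2-KO (of 23), 25 to 27 for double-KO (of 28), 21 to 24 for double-KO against Mll1-KO (of 22) and 19 to 23 for double-KO against Mll2-KO (of 24). Between days they were 31 to 32 for WT (of 34), 31 to 33 for Mll1-KO (of 34), 30 to 34 for Mll2-KO (of 32) and 33 to 34 for double-KO (of 34), and for the change of effect 6 to 11 for Mll1-KO (of 9), 10 to 13 for Mll2-KO (of 13) and 14 to 17 for double-KO (of 15). The replicate numbers did not pair the libraries: over 84 same-numbered pairs the median correlation of deviations was 0.003 (-0.0446 to 0.0768). With the replicate block the counts, in the same order, were 6, 8, 11, 9 and 6, 20, 23, 28, 22 and 22, 33, 33, 32 and 34 and 9, 13 and 15. Scaling to column totals moved the all-gene median by over 0.1 between days in WT (0.13), Mll1-KO (0.23) and the double-KO (0.12) and in the change of the Mll1-KO effect (0.11). Genes with a few reads, such as Col4a3, Col4a4 and Col17a1 at day 4, are limited by depth.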
